A study of Gallus gallus with 24 samples.

Results

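REST, SPEN, NRIP1, EP300 and HIVEP1 are genes for large nuclear proteins that switch other genes off or on, and they are 5 of the 17934 features counted in abdominal fat of 2 chicken lines. They were selected on their summed counts in these same birds, which earlier results had shown at a higher level in the lean line (LL) than in the fat line (FL), so their FL and LL levels are given here as a description from which nothing is inferred, and no p is given for them. HIVEP1 is listed in the deposited table as Q03171_CHICK, a protein entry that the study pairs with this symbol. The feature lies between EDN1 and TMEM170B, the order that RefSeq gives for HIVEP1 in the GRCg7b assembly.

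REST is a zinc finger protein that binds the promoters of neuronal genes outside the nervous system and silences them with the help of SIN3A, RCOR1 (CoREST) and histone deacetylases. SPEN binds RNA and carries corepressors of the NCOR family to chromatin, and it keeps the targets of the Notch factor RBPJ silent. NRIP1 (RIP140) is a corepressor of nuclear receptors that in mouse adipocytes holds down genes of fat oxidation and heat production. EP300 (p300) acts the other way, as a histone acetyltransferase that marks active enhancers and serves as coactivator for many factors, and HIVEP1 is a DNA-binding zinc finger protein of enhancers that resemble the NF-kB site. The set therefore mixes corepressors and 1 coactivator, and REST and HIVEP1 bind DNA themselves.

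RNA came from the abdominal fat of cockerels at 7 wk of age, 4 from the FL and 4 from the LL, lines that had been bred in opposite directions for the weight of this fat depot. There was 1 FL and 1 LL, so that the selection and the separate descent of the lines cannot be told apart. Each bird gave 1 library, which was sequenced in 3 runs. The count of every gene was summed over the 3 runs, and the bird is the replicate (n = 4 per line).

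The summed libraries held 4299772 to 10878211 counts in FL birds and 5548867 to 12876999 in LL birds. Levels per bird are CPM, counts per 1000000 counts of the library size corrected with the TMM method. The tissue carried its adipocyte markers in every bird, with 9 markers summing to 12197 to 15438 CPM in the FL and 10746 to 14229 CPM in the LL. FL replicate 4 stood apart, since its skeletal muscle markers (5 matched) summed to 17128 CPM, against 75.4 to 123 CPM in the LL birds, and the muscle actin gene ACTA1 was at 77.8 to 86.3 CPM in the other FL birds. The 8 mesothelial or epithelial markers summed to 47.0 to 99.4 CPM in the FL and 65.3 to 197 CPM in the LL, ranges that overlap, with UPK3B and EPCAM at 0 CPM in FL replicates 1 and 3. Each of the 8 had a fold change below 0, with a median log2 fold change of FL over LL of -2.51, so that these markers went the same way as the 5 genes. An unadjusted edgeR p under 0.05 was found for 6 of the 8, against 13.1% of all genes tested. The stromal list also had 8 of 9 markers below 0 (median -0.24), with 2 at an unadjusted edgeR p under 0.05, a count near that share. PDGFRA, a receptor of stromal progenitors, was at -0.64 with all LL birds above all FL birds. None of these markers was called after adjustment, and their part in the levels of the 5 genes was not tested. The summed levels of the other marker lists (stroma, endothelium, smooth muscle, macrophages, lymphocytes, erythroid cells, nerve and glia) also overlapped between the lines. In bulk tissue, fewer cells of a type and less RNA per cell cannot be told apart.

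All 5 genes were lower in every FL bird than in any LL bird. The fitted LL level was 1.21 (EP300) to 1.37 (HIVEP1) times the FL level. The same separation, with all LL birds above all FL birds, was found for 4.34% of the 11187 genes tested (8.11% in either direction), and nothing is read from the count among genes chosen for it. At an adjusted p at or under 0.05 (Benjamini-Hochberg, quasi-likelihood test of edgeR) and a fold of at least 1.2, the rule that made a gene differentially expressed (DE), 0.161% of all genes were called higher in the LL and 0.366% in either direction. None of the 5 was among them, and nothing is read from this count either.

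REST, the repressor of neuronal genes, lies on chromosome 4 (50684555 to 50696326, build 2.1) and had 43.0, 48.6, 49.2 and 46.3 CPM in FL replicates 1 to 4, against 66.2, 67.3, 61.8 and 54.1 CPM in LL replicates 1 to 4. The FL birds lay close together and the lowest LL bird, replicate 4, was 1.10 times the highest FL bird. The means were 46.8 ± 2.84 CPM in the FL and 62.4 ± 5.98 CPM in the LL (SD, n = 4). The FL over LL ratio was -0.42 on the log2 scale, with a standard error of 0.10.

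SPEN, the RNA-binding corepressor, lies on chromosome 21 (4247042 to 4305710) and had 223, 219, 262 and 292 CPM in the 4 FL birds, against 322, 319.5, 353 and 298 CPM in the 4 LL birds. The lines nearly met in the summed runs, since FL replicate 4 and LL replicate 4 differed by a factor of 1.02. The first runs of these birds were made in different sequencing schemes, which are described below. In runs 2 and 3 alone, SPEN had 245 to 268 CPM of the run total in FL birds and 332 to 382 CPM in LL birds. The means were 249 ± 34.6 CPM in the FL and 323 ± 22.7 CPM in the LL (SD, n = 4), with a log2 fold change of -0.38 (standard error 0.12).

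NRIP1, the corepressor of nuclear receptors, lies on chromosome 1 (101718906 to 101722773) and was counted least often, with 158 to 501 reads per bird. It had 31.9, 36.04, 32.6 and 32.1 CPM in FL birds, against 49.1, 46.3, 39.5 and 43.7 CPM in LL birds. LL replicate 1 was highest and LL replicate 3 lowest of its line, at 1.10 times the highest FL bird. The means were 33.1 ± 1.96 CPM in the FL and 44.7 ± 4.10 CPM in the LL (SD, n = 4), with a log2 fold change of -0.43 (standard error 0.11).

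EP300, the acetyltransferase, lies on the same chromosome (51666371 to 51723384) and had 160.5, 160.6, 175 and 183 CPM in FL birds, against 199.7, 204, 227 and 189.8 CPM in LL birds. LL replicate 4 was 1.04 times FL replicate 4, and LL replicate 3 stood highest. The means were 169.9 ± 11.2 CPM in the FL and 205 ± 15.9 CPM in the LL (SD, n = 4), and the log2 fold change of -0.27 (standard error 0.097) was the smallest of the 5.

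HIVEP1, the zinc finger protein of enhancers, lies on chromosome 2 (63852297 to 63882443) and had 115, 143, 129 and 134 CPM in FL birds, against 183, 177, 177 and 176 CPM in LL birds. In the summed runs it had the widest gap between the lines among the 5, with the lowest LL bird at 1.23 times the highest FL bird. The LL values were almost equal to each other, with a coefficient of variation of 1.70%, against 8.91% in the FL. With 1000 to 2241 counts per LL bird, counting error alone would give a larger spread than this. The closeness of the LL values is thus not read as low variation between birds. The means were 131 ± 11.6 CPM in the FL and 178 ± 3.04 CPM in the LL (SD, n = 4), with a log2 fold change of -0.45 (standard error 0.093).

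**Figure D1:**
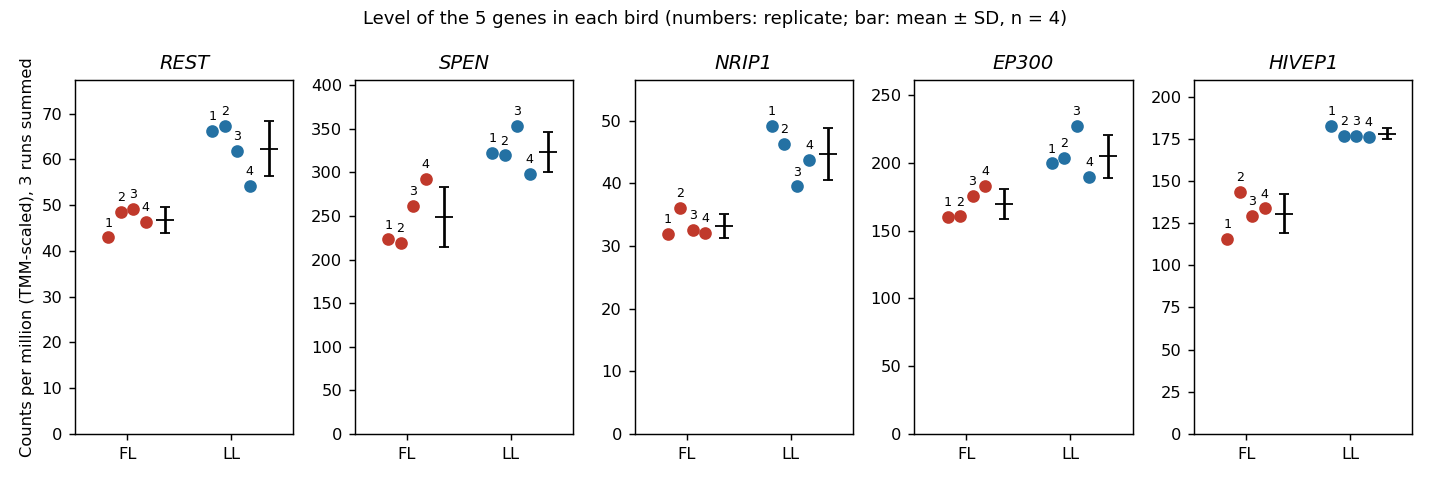
Level of REST, SPEN, NRIP1, EP300 and HIVEP1 in each bird, in CPM with TMM scaling and the 3 runs summed (y axis, from 0), with FL birds left and LL birds right in each panel. Points are birds with their replicate number, and bars give the mean and SD (n = 4). In every panel the 4 LL birds lie above the 4 FL birds. In these summed runs the gap is narrowest for SPEN (1.02 times) and widest for HIVEP1 (1.23 times). The gap of SPEN was wider in runs 2 and 3 alone (CPM of the run total).

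Since the lines did not overlap for any of the 5 genes, leaving out a bird could hardly turn a sign. Leaving out any 1 bird gave log2 fold changes between -0.49 and -0.22, all below 0, from which nothing is inferred. Without FL replicate 4, the bird with muscle RNA, they were -0.41 for REST, -0.46 for SPEN, -0.42 for NRIP1, -0.31 for EP300 and -0.46 for HIVEP1. The 5 markers that differed most in the mesothelial or epithelial list (UPK3B, CDH1, MSLN, EPCAM and UPK1B) were at most 1.14 CPM in LL replicate 1, against 2.89 to 20.7 CPM in the other LL birds. Within its line, LL replicate 1 was the highest bird for NRIP1 and HIVEP1, the second for REST and SPEN and the third for EP300. Its rank depended on the run. HIVEP1 had 201 CPM of the run total in its run 1, but 172 and 176 CPM in runs 2 and 3, below LL replicates 2 and 4. NRIP1 had 58.0, 46.5 and 33.3 CPM in its runs 1 to 3, highest of its line in runs 1 and 2 and lowest in run 3. The part of these markers in the levels was not tested. The annotated regions of SPEN and EP300 each overlap a feature without a name, which had 15 to 59 counts per bird at SPEN and 8 to 58 at EP300, against 961 to 4483 for SPEN and 704 to 2884 for EP300. Whether the counting used the strand is not given in the sources used here, and reads that EP300 shares with its paralog CREBBP were left out by the authors.

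The runs asked whether sequencing moved these levels. Per the study's methods, runs 2 and 3 of every library were made in Scheme C, with 8 libraries in a lane, and run 1 was made in Scheme A (4 in a lane) for 6 birds and in Scheme B (1 in a lane) for FL replicate 4 and LL replicate 3. Values of single runs are CPM of the total of the run, without TMM factors. Runs 2 and 3 agreed within sampling noise for each of the 5 genes, with chi-square values of 0.21 to 1.2 per degree of freedom over the 8 birds.

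The level of the LL was above that of the FL within each scheme. In the 6 birds of Scheme A, REST had 40.6 to 47.4 CPM in the FL and 53.1 to 72.5 CPM in the LL, and SPEN had 196 to 242 CPM in the FL and 268 to 313 CPM in the LL. NRIP1 had 36.8 to 49.3 CPM in the FL and 50.8 to 58.0 CPM in the LL. Both of these genes overlapped between the lines once the Scheme B libraries were added to Scheme A as first runs, at 196 to 273 CPM for SPEN in the FL and 268 to 350.4 CPM in the LL, and at 28.0 to 49.3 CPM for NRIP1 in the FL and 40.2 to 58.0 CPM in the LL. EP300 and HIVEP1 did not overlap in Scheme A, with 142 to 153 CPM of EP300 in the FL and 169.6 to 192 CPM in the LL.

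Scheme B holds 1 bird of each line, so that its values have no spread. There REST had 38.7 CPM in the FL bird and 60.2 CPM in the LL bird, SPEN had 273 CPM in the FL bird and 350.4 CPM in the LL bird, and NRIP1 had 28.0 CPM in the FL bird and 40.2 CPM in the LL bird. The direction was that of the other schemes for all 5 genes. In Scheme C the lines did not overlap for any of them, and the log2 ratio of the means, FL over LL, was -0.37 for REST, -0.47 for SPEN, -0.50 for NRIP1, -0.32 for EP300 and -0.46 for HIVEP1. The schemes are runs of the same libraries, and the genes were chosen on the sum of these runs. Their shared direction was thus nearly fixed in advance, and nothing is inferred from it.

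**Figure D2:**
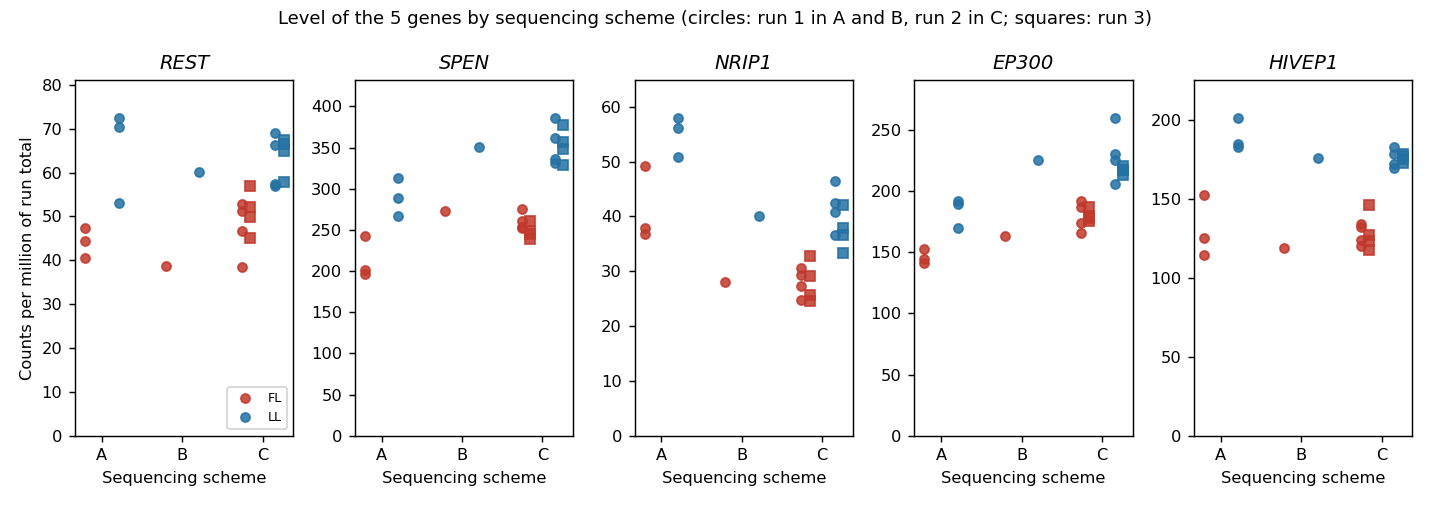
Level of the 5 genes in CPM of the run total (y axis, from 0) by sequencing scheme (x axis), with FL left of LL in each scheme. Circles are run 1 in Schemes A and B and run 2 in Scheme C, and squares are run 3. Within each scheme the LL points of each gene lie above its FL points, while NRIP1 is higher in Scheme A than in Scheme C and SPEN and EP300 are lower.

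The first run lay on the same side of the other runs of its library in most birds for NRIP1, EP300 and SPEN, which is described with no test. NRIP1 was higher in run 1 in 7 of 8 birds, with log2 ratios of run 1 to runs 2 and 3 of 0.43, 1.00, 0.38 and -0.15 in FL replicates 1 to 4 and 0.54, 0.48, 0.14 and 0.29 in LL replicates 1 to 4. The lowest ratio of each line belonged to the bird of Scheme B. The mean of 0.39 ± 0.33 (SD, n = 8) was above that of 97.1% of the 10948 tested genes that were counted in every bird in both sets of runs, and 4.78% of these had a ratio of 1 sign in all 8 birds, which none of the 5 had.

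EP300 was lower in run 1 in 7 of 8 birds (mean log2 ratio -0.23 ± 0.14), and SPEN in 6 of 8 birds (-0.19 ± 0.17). Both means were ordinary, above those of 21.4% of all genes for EP300 and 23.995% for SPEN. All 6 Scheme A birds had ratios of -0.39 to -0.23 for EP300 and -0.35 to -0.15 for SPEN, whereas FL replicate 4 and LL replicate 3 had -0.06 and 0.03 for EP300 and 0.10 and 0.03 for SPEN. The ratios of REST (-0.10 ± 0.14) and HIVEP1 (0.03 ± 0.10) lay on both sides of 0 and did not separate the schemes.

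Such a split by scheme was common. The ratios of the Scheme B birds did not overlap those of the Scheme A birds for 44.4% of 10948 genes, with 17.4% above them as SPEN and EP300 were and 27% below them as NRIP1 was, so that 3 of these 5 genes (SPEN, NRIP1 and EP300) is near the background. Since 1 bird of each line was in Scheme B, the shift entered both lines.

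**Figure D3:**
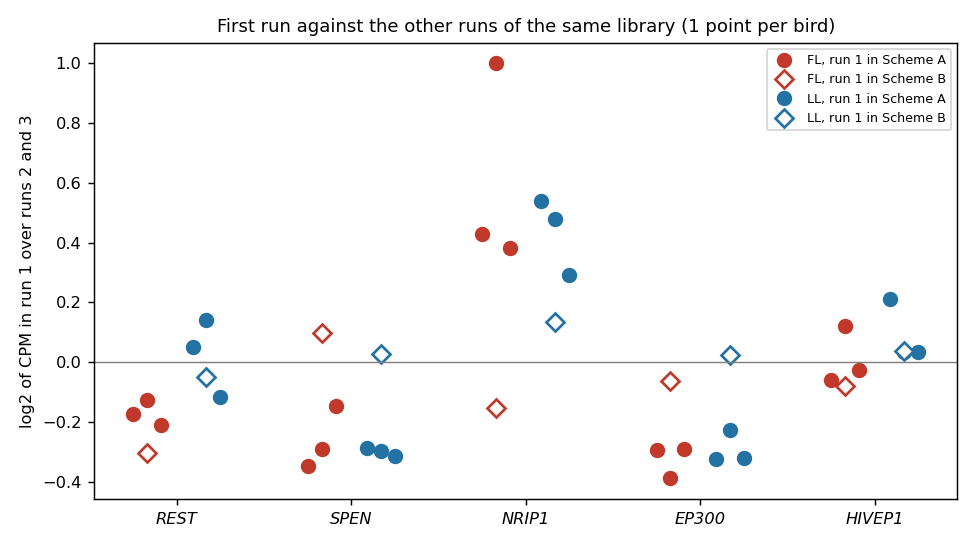
Log2 ratio of CPM in run 1 to CPM in runs 2 and 3 of the same library (y axis) for each of the 5 genes, 1 point per bird, FL birds left of LL birds. Filled circles are birds with run 1 in Scheme A and open diamonds the birds with run 1 in Scheme B. For NRIP1 the Scheme A birds lie between 0.29 and 1.00, and for SPEN and EP300 all Scheme A birds lie below 0 and below both diamonds.

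Covariation of the 5 genes was measured within the lines, after the mean of its line had been subtracted from each bird's log2 CPM, so that the line difference does not enter. Over the 10 pairs Pearson's r ranged from -0.58 to 0.92 with a median of 0.30. SPEN and EP300 moved together most closely (r = 0.92, Spearman's correlation 0.86, 8 birds). FL replicate 4 and LL replicate 3 were the highest birds of their lines in both genes, at 0.24 and 0.13 above the line mean on the log2 scale for SPEN and 0.11 and 0.15 for EP300. They are the birds of Scheme B, whose ratios of run 1 to runs 2 and 3 lay above all those of Scheme A for both genes. The part of the scheme in their levels was not tested. Exact permutation within lines (two-sided) gave p = 0.00694 for this r and p = 0.0174 for Spearman's correlation, which became 0.0694 and 0.174 after Benjamini-Hochberg adjustment over the 10 pairs, so that no pair passed. Without the birds farthest from the median of SPEN (FL replicates 2 and 4) r was 0.94, and without FL replicate 4 and LL replicate 3 it was 0.96 over 6 birds.

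Other pairs differed between the sets of runs. In each of runs 2 and 3, NRIP1 had only 27 to 92 counts per bird and REST 56 to 151, so that counting error can move their r. Its part was not tested. In runs 2 and 3 alone, where all 8 libraries shared the lanes, r was 0.81 for SPEN and EP300, 0.90 for REST and EP300 and 0.75 for REST and SPEN, whereas over all runs REST had r = 0.33 with EP300 and 0.28 with SPEN. Over all runs, without the birds farthest from the median of REST (FL replicate 1 and LL replicate 4), REST had r = -0.75 with EP300 and -0.63 with SPEN. SPEN and NRIP1 had r = -0.44 over all runs, -0.72 in run 1 and 0.50 in runs 2 and 3. NRIP1 and HIVEP1 had r = 0.51 over all runs and -0.03 in runs 2 and 3. SPEN and EP300 remained between 0.71 and 0.97 under each of 14 alternatives, the total-count scaling giving the lowest value.

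**Figure D4:**
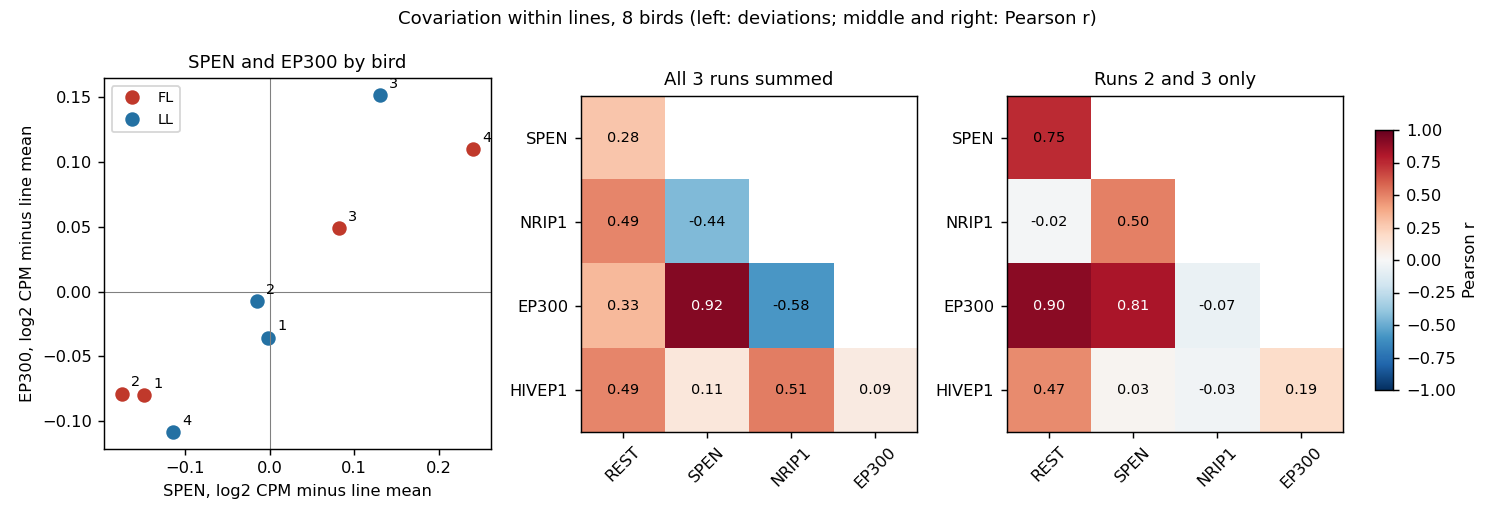
Left, deviation of each bird from the mean of its line in log2 CPM for SPEN (x axis) and EP300 (y axis), FL and LL birds with replicate numbers. Middle and right, Pearson's r within lines for the 10 pairs of genes from all 3 runs and from runs 2 and 3 only (8 birds). SPEN and EP300 have r = 0.92 from all runs and 0.81 from runs 2 and 3, while REST and EP300 have 0.33 and 0.90.

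For each of the 5 genes the most similar profiles within lines were sought among 5748 named genes of at least 10 CPM, and the 3 with the highest r are described with no test. The highest of so many values of r over 8 birds can be large through the search alone, so that no shared regulation is inferred. REST was followed most closely by AKAP13 (r = 0.98), a kinase anchor, then by SNRK (0.97), a kinase related to SNF1, and NID1 (0.96), the basement membrane protein nidogen. SPEN went with the growth factor gene TGFB3 (0.98), the mitochondrial protease gene HTRA2 (0.97) and the acyl-CoA thioesterase gene ACOT7 (0.96). NRIP1 went with RRAGB (0.95), a small GTPase of amino acid sensing, GNPDA2 (0.94), an enzyme of glucosamine phosphate, and CCNG2 (0.94), cyclin G2.

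The closest profiles to EP300 were SMARCD1 (0.98), a subunit of SWI/SNF chromatin remodellers, the kinase gene MAST2 (0.98) and SOGA1 (0.98). Those closest to HIVEP1 were ANTXR1 (0.97), a collagen-binding membrane receptor, the kinase gene HUNK (0.96) and CHRDL1 (0.96), a BMP antagonist. Of these 15 genes 9 had a log2 fold change of FL over LL below 0, against 49.5% of all genes tested, and nothing is read from this count. The other 6 were above 0, among them NID1 at only 0.005. ANTXR1 had 50.6, 78.7, 65.6 and 75.8 CPM in FL birds, against 120, 111, 109.5 and 115 CPM in LL birds (log2 fold change -0.75, edgeR adjusted p = 0.0501), whereas TGFB3 had 112 to 156 CPM in FL birds and 102 to 122 CPM in LL birds (0.22, adjusted p = 0.483).

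The genes that work with the 5 were read from 13 lists of partners, paralogs and targets, with 112 genes tested beside the 5 themselves. None of the 112 was a DE gene by edgeR, with 19 at an unadjusted p under 0.05 (16.96%, against 13.1% of all genes tested) and a smallest adjusted p of 0.152. DESeq2 called 2.85% of all genes and 2 of the 112, PSEN2 and RXRG, both higher in the FL. Log2 fold changes of FL over LL ran from -0.95 to 0.85 with a median of -0.07, and 61.6% were below 0, against a median of 0.00 and 49.5% over all genes. Of the 112, 8 had all LL birds above all FL birds and 3 had the reverse. Over all genes tested, 4.34% had all LL birds above all FL birds and 8.11% separated in either direction. Nothing is read from these counts. Genes named below without a DE call are given by their values.

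The corepressor complex of REST had 11 of 17 genes tested, 7 of them with a fold change below 0 and a median of -0.02. Those of highest CPM, a ranking not corrected for length, were USP7 (0.06), a deubiquitinase that stabilises REST, the deacetylase gene HDAC2 (-0.11), the phosphatase gene CTDSPL (-0.13) and PHF21A (0.06), a subunit of the CoREST complex. SIN3A, the scaffold of the deacetylase complex, was picked out after its values were seen, at 68.7, 63.6, 66.4 and 79.0 CPM in FL birds and 86.3, 88.4, 90.3 and 77.7 CPM in LL birds, ranges that overlap through FL replicate 4 and LL replicate 4 (log2 fold change -0.30, standard error 0.10).

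Target genes of REST, which encode neuronal proteins, were barely present in this fat. Of 20 genes listed 10 were matched and only CHGB and CHGA, granins of secretory vesicles, passed the filter on low counts. CHGA had 1.09, 1.82, 0.27 and 1.92 CPM in FL birds and 1.85, 3.00, 2.05 and 3.03 CPM in LL birds, which overlap (log2 fold change -0.95, standard error 0.45), and CHGB differed by 0.00 (standard error 0.23). The other 8 were at or below 1.52 CPM in every bird, and SCN3A, a neuronal sodium channel gene, had no count in any bird, which allows up to 3 counts or 0.23 to 0.70 CPM.

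The list of NCOR and RBPJ corepressors (11 of 15 genes tested) had a median log2 fold change of -0.17, with 7 below 0. Highest in CPM were CTBP1 (0.24), a corepressor that binds short peptide motifs, NCOR1 (-0.18), the scaffold of the NCOR complex, its subunit TBL1X (-0.20) and SNW1 (0.08), a coregulator of Notch targets. RBPJ, the DNA-binding factor of the Notch pathway to which SPEN binds, was named after its values were seen, with 51.5, 57.3, 52.5 and 52.7 CPM in FL birds and 75.1, 65.6, 61.3 and 74.4 CPM in LL birds. These birds did not overlap, but the log2 fold change of -0.37 (standard error 0.10) had an edgeR adjusted p of 0.152.

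The relatives of SPEN with the same kinds of domain, RBM15 and RBM15B, had 7.83 to 10.01 and 23.5 to 29.9 CPM in FL birds, against 6.96 to 15.0 and 23.9 to 34.1 CPM in LL birds. Both overlapped between the lines, with log2 fold changes of -0.13 (standard error 0.24) for RBM15 and -0.06 (0.14) for RBM15B. Of the Notch pathway 14 genes of 20 were tested, with 8 below 0 and a median of -0.03. The receptor genes NOTCH2 (-0.12) and NOTCH1 (-0.26) and the sheddase genes ADAM10 (-0.00) and ADAM17 (0.10) had the highest CPM. PSEN2, a catalytic part of gamma-secretase, had 98.6, 89.4, 83.9 and 88.8 CPM in FL birds and 76.3, 74.0, 64.9 and 66.8 CPM in LL birds without overlap (log2 fold change 0.36, standard error 0.096, edgeR adjusted p = 0.152).

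Of the nuclear receptors, the class of factors on which NRIP1 acts, 22 of 28 listed were tested, 15 of them below 0 with a median log2 fold change of -0.18. Of high CPM were NR1H3 (-0.01), the oxysterol receptor LXR alpha, PPARG (0.11), the master factor of adipocytes, and the glucocorticoid receptor NR3C1 (-0.20). An unadjusted edgeR p under 0.05 was found for 7 of the 22, against 13.1% of all genes tested, and all of these but RXRG were below 0. RXRG, a retinoid X receptor, had 38.8, 30.1, 18.7 and 42.9 CPM in FL birds and 22.0, 14.8, 21.1 and 14.6 CPM in LL birds, which overlap through FL replicate 3 (log2 fold change 0.85, standard error 0.25, edgeR adjusted p = 0.180). RARB, a retinoic acid receptor, had 12.3 to 17.8 CPM in FL birds and 18.9 to 25.1 CPM in LL birds. These did not overlap (log2 fold change -0.57, standard error 0.16, edgeR adjusted p = 0.156).

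Of the coactivators of nuclear receptors, 9 of 12 were tested, 8 of them below 0 with a median of -0.21. NCOA4 (0.12) and the Mediator subunit gene MED1 (-0.01) had the highest CPM, followed by NCOA2 and NCOA3 of the p160 family. NCOA2 had 44.3, 46.5, 53.8 and 57.0 CPM in FL birds and 58.2, 64.7, 75.4 and 59.5 CPM in LL birds, which do not overlap (log2 fold change -0.35, standard error 0.12). NCOA3 had a log2 fold change of -0.21 (standard error 0.093), and the edgeR adjusted p of these genes was 0.236 and 0.362.

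Genes that NRIP1 represses in mouse adipocytes had the highest median of the 13 lists, 0.23 over 6 genes tested of 11. FABP3, a fatty acid carrier of oxidative tissues, had 384, 401, 558 and 678 CPM in FL birds and 229, 324, 351 and 412 CPM in LL birds, with overlap (log2 fold change 0.62, standard error 0.22, edgeR adjusted p = 0.243). Its highest value was in FL replicate 4, the bird with muscle RNA, and the part of that RNA was not tested. Without this bird the median of the list was 0.20. CIDEA, a lipid droplet protein, had 754 to 923 CPM in FL birds and 620.4 to 937 CPM in LL birds (0.24, standard error 0.15). ACADL (0.21) and CPT1A (-0.29), enzymes of mitochondrial fatty acid oxidation, lay on either side of 0.

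Of the acetyltransferases beside EP300 4 of 10 were tested, 3 of them below 0 with a median of -0.17. CREBBP, the paralog of EP300, had 165, 171, 175 and 217 CPM in FL birds and 168, 199.7, 234 and 196 CPM in LL birds, ranges that overlap almost wholly (log2 fold change -0.13, standard error 0.13). TAF1 (0.05), a subunit of TFIID, and KAT6A (-0.30) and KAT6B (-0.20) of the MYST family were the others. Deacetylases and sirtuins (13 of 17 tested) had a median of -0.07 with HDAC7 (-0.20), HDAC2, SIRT1 (-0.14) and HDAC1 (-0.16) as those of highest CPM.

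Factors that bind EP300 (10 of 20 tested) had a median of -0.02, with the hypoxia factors EPAS1 (0.02) and HIF1A (-0.26) and the cytokine factors STAT5B (0.03) and STAT3 (0.14) as those of highest CPM.

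HIVEP2 and HIVEP3 complete the family of HIVEP1. HIVEP2, which in mice takes part in the formation of adipocytes, had 114, 127, 137.3 and 127.5 CPM in FL birds and 176, 161, 137.2 and 154 CPM in LL birds. LL replicate 3 fell below FL replicate 3, so that the lines overlapped, with a log2 fold change of -0.31 (standard error 0.11, edgeR adjusted p = 0.232). HIVEP3 had 9.35 to 13.2 CPM in FL birds and 10.7 to 14.5 CPM in LL birds (-0.17, standard error 0.16). The NF-kB pathway, whose DNA site HIVEP1 can bind, had 10 of 16 genes tested with a median of 0.03. Its members of highest CPM were the inhibitor gene NFKBIA (0.12), the subunit genes NFKB1 (-0.13) and REL (-0.13) and the kinase gene CHUK (0.11).

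**Figure D5:**
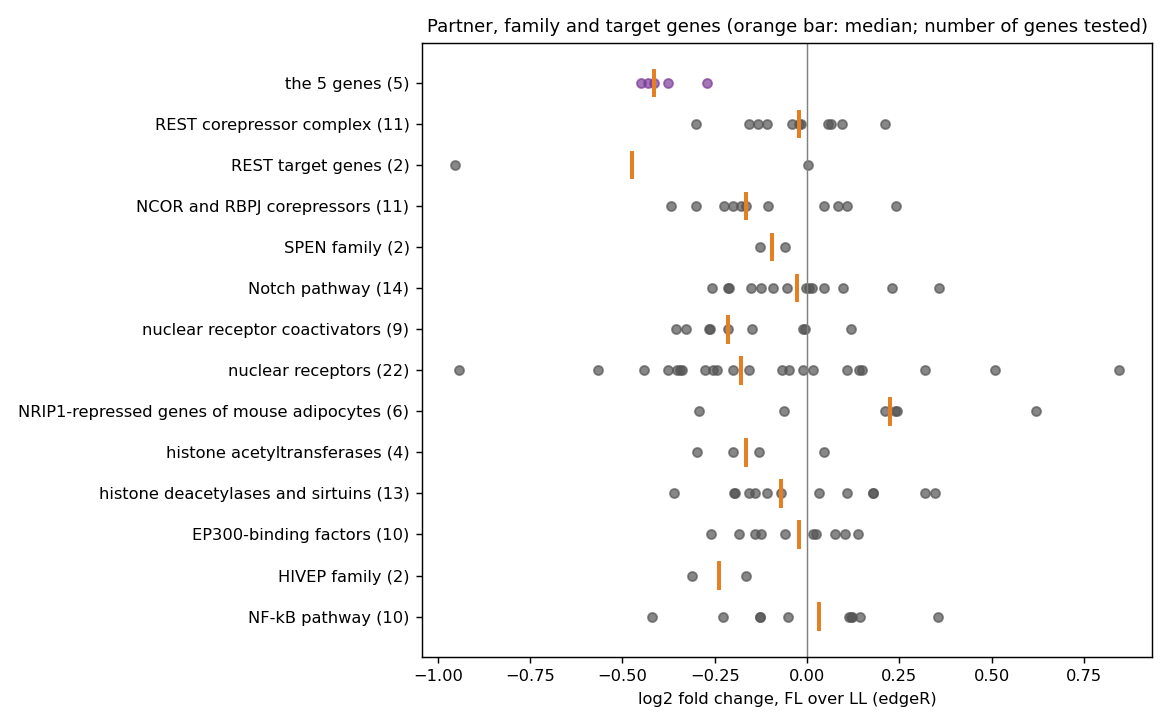
Log2 fold change of FL over LL by edgeR (x axis) for the 5 genes (top line) and the tested genes of the 13 lists, 1 point per gene, with the number of genes tested in brackets and the median as an orange bar. The 5 genes, chosen for a lower level in the FL, lie between -0.45 and -0.27. The list medians lie between -0.47 (REST targets, 2 genes) and 0.23 (NRIP1-repressed genes of mouse adipocytes).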

How the data were processed

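Abdominal fat RNA of 8 cockerels was sequenced in 24 runs, 3 per bird. The authors trimmed the reads and used CLC Genomics Workbench to map pairs to chicken build 2.1 and its Ensembl genes, extended by flanking sequence, and deposited the unique exon read count of each gene and run, which is not normalized. Of the other deposited columns, 24 of normalized runs, 4 of line means and 3 with the authors' fold changes and p-values were not used. Groups were taken from the sample titles and line labels, since the description label of the LL samples names the FL.

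Counts were summed per bird, filtered with filterByExpr (11187 genes), scaled with TMM and tested in edgeR 4.0.16 (glmQLFit, glmQLFTest, robust=FALSE, R 4.3.3) and the p-values of all these genes were adjusted after Benjamini and Hochberg. The design held the lines only. DE genes needed a fold of at least 1.2 beside an adjusted p of no more than 0.05. All p-values measure the spread between the birds sampled. The scripts were tested on simulated data. Exact permutation of birds within lines used all 576 arrangements. Lane schemes were taken from the study's own account of its runs, which the sample labels order otherwise, and served as technical batches only. Names came from the deposited symbols, the study's pairs of entry and symbol, and RefSeq (10174 features named). Python 3.11.15 with matplotlib 3.10.9 drew the figures.

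A count of 0 allows 3 counts, or 0.233 to 0.698 CPM per bird, and this covers counting error only, since reads carried no molecular identifiers. Alternatives were DESeq2 1.42.0, other scalings, filters and settings of edgeR, single runs, a replicate block and each bird left out. Genes named were the 5, their paralogs, the 4 genes of highest CPM in each list (1 of them is not reported here) and the 3 of highest r within lines. SIN3A, RBPJ, PSEN2, RXRG, RARB and single markers were named after their values were seen. The 5 genes and the lists were chosen with earlier results of these data known. Ranking by CPM served only to choose names, since exon lengths were not used here.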

Additional observations from a re-analysis of the deposited data

Results flagged for a closer look

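Among 20 groups of 4 birds (the CPM and the run ratio of each of the 5 genes in each line), 3 had a bird whose gap to the nearest other exceeded Dixon's 95% critical value, where chance alone flags about 1 group in 20. HIVEP1 in LL replicate 1 was 182.6 CPM, against 176.3 to 176.7 CPM in the other LL birds, a gap that is large only beside the narrow spread of the rest. Its log2 ratio of run 1 to runs 2 and 3 in the same bird was 0.21, against 0.03 to 0.04 in the other LL birds. In both measures these other birds lay closer together than counting error alone would leave them, at 1000 to 2241 counts per bird. Neither flag of HIVEP1 is read further. SPEN in LL replicate 3 had a run ratio of 0.027, against -0.31 to -0.29 in the other LL birds. LL replicate 3 is the LL bird whose first run was in Scheme B.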

How the results depend on the processing

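The 5 log2 fold changes were below 0 in 95 of 95 values from 19 alternatives, between -0.52 and -0.22. Each moved by less than 1 SD between birds. These values come from the counts on which the genes were chosen, so their sign is a description and no support. The robust setting of edgeR and the lack of a fold threshold leave a fold change as it is. Leaving out a bird could hardly turn its sign. Calls of these genes, which restate how they were chosen, were 0 by the main test, 3 by DESeq2 (REST, NRIP1 and HIVEP1), 2 from runs 2 and 3 (SPEN and HIVEP1), 5 with the 24 runs as replicates and 0 under the other alternatives, among them scaling to mapped reads, where their standard errors were 0.28 to 0.29. The number of DE genes over the whole table depended far more on the settings, at 41 by the main test, 319 by DESeq2, 27 with no filter, 1328 with the 24 runs taken as replicates, 135 from runs 2 and 3, 1 from run 1, and 180 with scaling to the mapped reads of the study, which was added after the data were seen. Leaving out 1 bird gave 2 to 65 DE genes, with fewest without FL replicate 3 or LL replicate 2 (2 each), 3 without LL replicate 4, 6 without FL replicate 1, 15 without FL replicate 2, 16 without LL replicate 3 and most (65) without FL replicate 4. Total-count scaling called 46 genes, 56.5% of them higher in the LL, against 43.9% by the main test. Partner genes called were 0 by the main test, 2 by DESeq2, 15 with runs as replicates and 1 (PSEN2) from runs 2 and 3, and 0 with any 1 bird left out. Over all genes tested, the calls were 319 of 11187 by DESeq2, 1328 of 9465 with runs as replicates and 135 of 10515 from runs 2 and 3. Nothing is read from the counts among the partners or the 5 genes.

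The replicate block left 8 DE genes and 0 partner genes. Same-numbered birds of the lines correlated at only -0.11 to 0.23, which shows no pairing by number but cannot exclude one. The median r of the 10 pairs lay between 0.08 and 0.54 under all alternatives, and 11 of 140 values of single pairs moved by more than the SD over pairs. This SD is a wide limit, since the 10 values of r ran from -0.58 to 0.92. Under the alternatives r ran from -0.72 to 0.50 for SPEN and NRIP1 and from -0.61 to 0.81 for SPEN and HIVEP1. It stayed between 0.71 and 0.97 for SPEN and EP300. Of 247 values of list medians, 27 moved by more than the spread between birds. The cause was not tested. The authors' own scaling was not run, because the name of 1 normalized column is repeated. Of the REST targets, 8 of 10 matched genes failed the filter on low counts, and whether depth or absence was the reason was not tested.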
